A study of Homo sapiens with 60 samples.

Results

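Cholesterol synthesis and sterol homeostasis were followed through 29 listed genes, taken from general knowledge of the pathway and named by symbol. They cover the enzymes from acetoacetyl-CoA to cholesterol, the sterol-sensing SREBP2 system, and sterol uptake and transport. Also listed are targets of the sterol receptor LXR, with efflux genes among them. A gene counted as a member when its mean reached 1 CPM (counts per 1e6 counts of the library) in at least 1 group. The rule left 28 of 60675 rows of the deposited table, and all 28 were among the 17049 genes tested. NPC1L1, the intestinal cholesterol absorption protein, failed it with a highest group mean of 0.271 CPM. The cells were HT29, an established human line from a colorectal adenocarcinoma, bulk cultured and taken after 24 h. Each extract was made in hot water and given at a high (500 µg/mL), a medium (100 µg/mL) or a low (20 µg/mL) dose. Menthae Herba and Saposhnikoviae Radix are single herbs. Saengmaek-san, Guibi-tang, Soyo-san and Okbyeongpung-san are formulas of several herbs, and these 6 extracts had 3 libraries per dose. Soshiho-tang, another formula, had 1 library per dose. The vehicle group was 3 libraries of cells given DMSO, at 0.1% per the sample characteristics, where the design text of the series gives another share. No DMSO share is recorded for the libraries of the extracts. If their cells had none, the extract and the lack of DMSO cannot be told apart in comparisons with vehicle. All groups share 1 cell line, and the labels do not say whether libraries of a group came from separate cultures, so p-values measure the spread between these libraries.

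Cells make cholesterol from acetyl-CoA through mevalonate, isoprenoid diphosphates, squalene and lanosterol. When sterols in the endoplasmic reticulum run low, SCAP carries the precursor of SREBP2, encoded by SREBF2, to the Golgi, where it is cut into a transcription factor that raises most of the genes of the pathway, while INSIG1 and INSIG2 hold SCAP back when sterols are plentiful. Oxysterols, which form when cholesterol is plentiful, activate LXR, which raises the exporters ABCA1 and ABCG1 and the ubiquitin ligase MYLIP, which marks lipoprotein receptors for degradation. Intestinal epithelium both makes and absorbs cholesterol.

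Total counts per library, in units of 1e6, ran from 19.5 to 41.9 with a median of 29.2. The sign of the first principal component, which held 12.8% of the variance, changed once along the library numbers, between 31 earlier-numbered and 29 later-numbered libraries. The earlier part held every library of vehicle and of the 2 single herbs, the later part every library of Soyo-san, Okbyeongpung-san and Soshiho-tang, and those of Saengmaek-san and Guibi-tang were divided between the parts. Earlier-numbered libraries were deeper, with a median of 34.7 against 24.9 in the same units. For Soyo-san, Okbyeongpung-san and Soshiho-tang the extract and the part of the numbering cannot be told apart from the libraries of the comparison alone, so values with a term for the part (the order term, estimated from Saengmaek-san and Guibi-tang) are given for Soyo-san and Okbyeongpung-san. The single Soshiho-tang libraries have no such value and are set beside later-numbered libraries of other extracts instead. By that term 15.9% of all genes were higher and 13.7% lower in later-numbered libraries. Of 10 intestinal epithelial markers, 9 reached 1 CPM (KRT8 with a median of 6340 CPM, EPCAM with 503 CPM). Of 8 immune markers, 2 did (CD14 and LYZ, while PTPRC had a median of 0.0116 CPM), as did 2 of 8 fibroblast and endothelial markers (COL1A1 and PECAM1) and 0 of 7 hepatocyte and steroid cell markers. The summed level of the immune list ran from 1409 to 1454 CPM in vehicle and from 1227 to 1675 CPM in treated libraries, nearly all of it LYZ. The mitochondrially encoded share was 12.8% to 13.5% in vehicle and 9.74% to 13.9% in treated libraries, with 55 of the 57 treated libraries below every vehicle library, so that a lower share went with every comparison with vehicle. Its part in the results was not tested. In bulk RNA, fewer cells that express a gene and less RNA per cell cannot be told apart.

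SREBP2 acts on promoters through the sterol regulatory element, often with the factor NF-Y on a CCAAT box beside it. Promoters of 24 of the 28 members were found by symbol in a RefSeq table (GRCh38.p14), each from 250 bases before to 50 bases after a start site, and both strands were searched. The NF-Y box CCAAT lay in the promoters of 18 of these 24 genes (75%), against 42.1% of 15843 protein-coding genes and 39.7% of all 27305 genes in the table. The sterol regulatory element in its strict form TCACNCCAC lay in 1 (4.17%), that of SREBF2, against 1.51% of protein-coding and 1.39% of all genes. These letters are no measure of binding. The members were chosen as genes of 1 pathway, so the shares describe them and test nothing. Below are 4 promoters, shown because STARD4 and MSMO1 moved together in 1 extract, MVD moved in others, and SREBF2, their regulator, did not pass the test in any comparison with vehicle. Each runs from position -250 to -71 before the RefSeq start, with capitals on CCAAT or its reverse complement ATTGG and, in SREBF2, also on the sterol regulatory element.
STARD4, chr5:111512606-111512785, minus strand: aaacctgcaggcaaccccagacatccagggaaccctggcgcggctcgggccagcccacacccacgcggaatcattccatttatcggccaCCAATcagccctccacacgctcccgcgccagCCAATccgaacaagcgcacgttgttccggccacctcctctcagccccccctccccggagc
MSMO1, chr4:165327419-165327598, plus strand: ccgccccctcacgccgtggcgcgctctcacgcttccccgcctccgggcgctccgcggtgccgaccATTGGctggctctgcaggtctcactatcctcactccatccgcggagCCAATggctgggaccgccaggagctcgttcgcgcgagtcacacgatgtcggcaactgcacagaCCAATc
MVD, chr16:88663162-88663341, minus strand: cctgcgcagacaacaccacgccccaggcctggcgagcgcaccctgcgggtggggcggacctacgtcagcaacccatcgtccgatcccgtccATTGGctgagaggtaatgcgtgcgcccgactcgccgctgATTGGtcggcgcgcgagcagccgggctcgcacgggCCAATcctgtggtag
SREBF2, chr22:41832855-41833034, plus strand: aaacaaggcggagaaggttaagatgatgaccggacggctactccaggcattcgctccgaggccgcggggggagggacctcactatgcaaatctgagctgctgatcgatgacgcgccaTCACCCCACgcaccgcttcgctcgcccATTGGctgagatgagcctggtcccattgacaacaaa
Over its whole window, MSMO1 held 4 boxes, 1 of them nearer the start than the stretch shown, MVD 3, STARD4 2 and SREBF2 1. CYP51A1, NPC1, INSIG2, SCAP, PMVK and ABCA1 had no CCAAT in their windows.

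In vehicle cells the levels of the members per length differed widely, from 156 to 0.381 CPM per kilobase of exon. As CPM per kilobase of exon (GENCODE release 29, GRCh38, which may not be the submitters' annotation), squalene epoxidase, SQLE, a rate-controlling enzyme of the late pathway, was highest at 156. DHCR7, the reductase of the last step to cholesterol, followed at 86.1, and the lanosterol demethylase CYP51A1 at 44.5. SREBF2 was the fourth at 37.7. The exporters were lowest, ABCG1 at 0.394 and ABCA1 at 0.381 CPM per kilobase. Some exons are shared with neighbours: TM7SF2 (chromosome 11, 65111845 to 65116384, plus strand) overlaps VPS51 on its own strand, and ACAT2 (chromosome 6, 159760328 to 159779055, plus strand) overlaps TCP1 and SOD2 on the other strand. NPC1 overlaps RMC1, MVK overlaps MMAB and NPC2 overlaps ISCA2, each on the other strand, and HMGCS1, IDI1, STARD4 and others overlap further annotated genes. FDPS has 8, CYP51A1 3 and HSD17B7 2 pseudogenes by name. The values of all these genes can depend on how shared reads were divided and, for overlaps on the other strand, on the strand setting, which is not known.

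**Figure D1:**
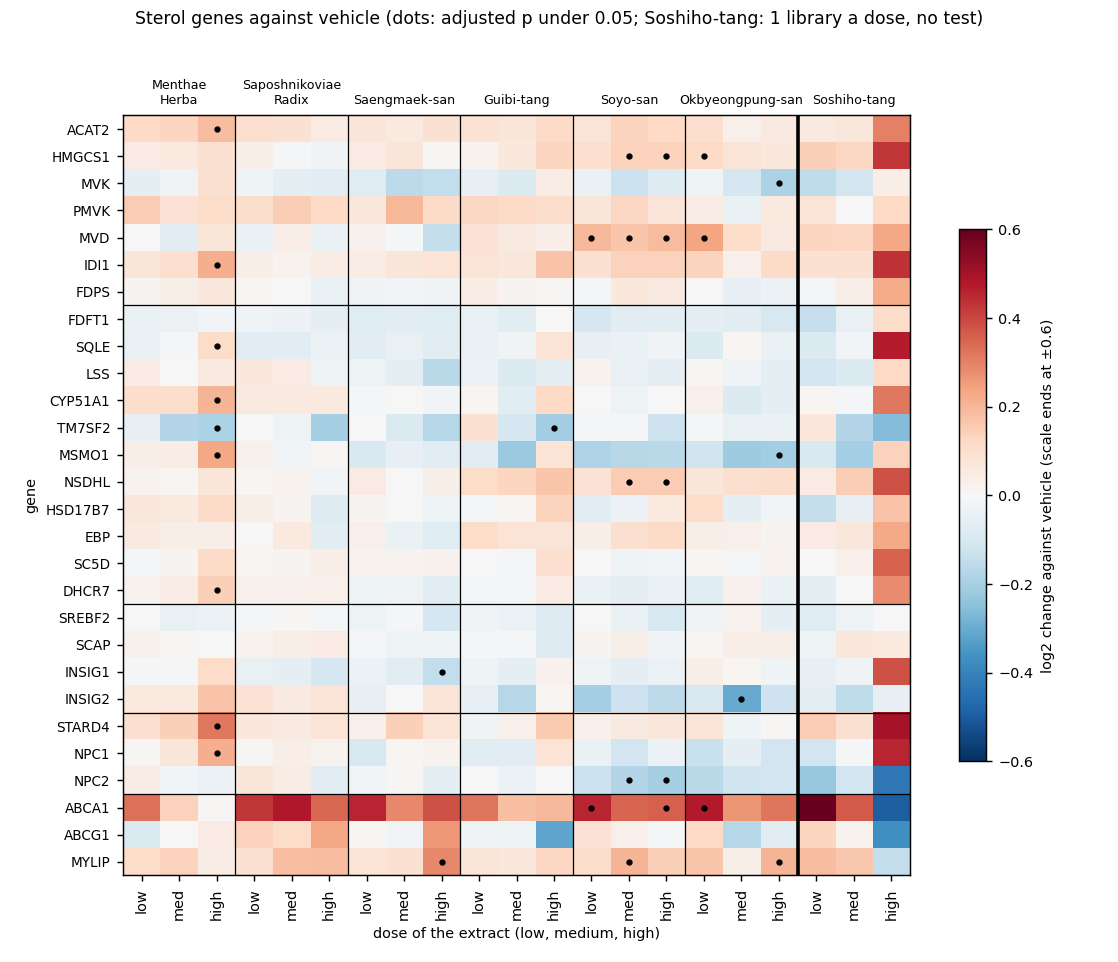
Log2 change against vehicle of the 28 members (rows, grouped by role) at the low, medium and high dose of each extract (columns), as fitted by edgeR, with black dots at an adjusted p under 0.05. The last 3 columns are log2 ratios of single Soshiho-tang libraries to the vehicle mean and have no test. Most cells are pale, Menthae Herba at the high dose has 9 dots, the high-dose Soshiho-tang column has deep colours in many rows, and the deepest cell of all is ABCA1 in the low-dose Soshiho-tang library.

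Across the 18 comparisons with vehicle, all of which share the same 3 vehicle libraries, 18 of the 28 members passed edgeR's threshold (adjusted p under 0.05 over all genes tested) at least once and 10 never did. The 31 calls were small, the largest being 0.48 on the log2 scale for ABCA1. MVD was called in 4 of the 18 comparisons and ABCA1, HMGCS1 and MYLIP in 3 each, always higher. In single comparisons the share of all genes called ran from 0.0293% (Saposhnikoviae Radix medium) to 14.5% (Soyo-san high). How many of all genes were called at least once, or as often, was not counted. These pooled counts are thus not shown to be particular to the members. The heat map of changes shows where the calls lie.

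With the high dose of Menthae Herba, the mint herb, more members passed than in any other of the 18 comparisons. There 8 of 28 genes rose and 1 fell, or 32.1% of the members, where 8.57% of all genes tested passed in that comparison (782 higher, 679 lower). The median log2 change was 0.092 over the members and -0.0041 over all genes, and 23 of the 28 estimates were above 0. The genes that rose came from the mevalonate steps (2 of 7 tested), from squalene to cholesterol (4 of 11, with 1 lower) and from uptake and transport (2 of 3). In the fit of 57 libraries none of the 4 sensing genes or the 3 LXR targets passed. Of the 10 intestinal epithelial markers, 1 rose (KRT20, 0.19 ± 0.061, edgeR adjusted p = 0.0374) and 4 fell in the same comparison (VIL1 by 0.23, CDH1 by 0.18, LGALS4 by 0.17 and CDX2 by 0.39 on the log2 scale, edgeR adjusted p between 4.08e-05 and 0.0342). The mitochondrial share of its 3 libraries was 11.1%, 11.7% and 12.1%, below every vehicle library. The part of either in the changes of the sterol genes was not tested.

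STARD4, a soluble carrier that moves sterol between membranes, was at 38.7, 45.0 and 43.4 CPM in the vehicle libraries and at 50.2, 54.7 and 53.8 CPM after the high dose of Menthae Herba. All treated libraries lay above all vehicle libraries, a log2 change of 0.32 ± 0.061 (SE, edgeR adjusted p = 3.58e-04). CYP51A1, which removes a methyl group from lanosterol, was between 158 and 161 CPM in vehicle and at 181, 187 and 183 CPM in the treated libraries. Its change was 0.21 ± 0.044 (edgeR adjusted p = 0.00153). IDI1, the isomerase that balances the isoprenoid building blocks, had 100.1, 105 and 102 CPM in vehicle and 115, 125 and 118 CPM after treatment, a change of 0.22 ± 0.052 (edgeR adjusted p = 0.00452). NPC1, the membrane protein through which cholesterol leaves the lysosome, had 45.7, 46.1 and 46.4 CPM in vehicle and 53.5, 54.9 and 52.4 CPM after treatment. This was a change of 0.22 ± 0.054 (edgeR adjusted p = 0.00656), and its groups did not overlap. Here and below, lack of overlap adds no support in genes that the test picked on the same libraries.

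The other 4 genes that rose were the methyl sterol oxidase MSMO1 (0.23 ± 0.064, edgeR adjusted p = 0.016), the thiolase ACAT2 (0.18 ± 0.048, edgeR adjusted p = 0.0103), DHCR7 (0.14 ± 0.043, edgeR adjusted p = 0.0257) and SQLE (0.11 ± 0.036, edgeR adjusted p = 0.0475). MSMO1 went from 56.0 ± 3.87 CPM (SD, n = 3) to 65.7 ± 3.29 CPM (n = 3), and SQLE from 672 ± 10.8 to 724 ± 10.6 CPM. The gene that fell was TM7SF2, a sterol reductase whose activity the nuclear envelope protein LBR shares. It was at 36.5, 33.9 and 31.9 CPM in vehicle and at 30.0, 30.3 and 29.4 CPM after treatment, a change of -0.19 ± 0.053 (edgeR adjusted p = 0.0173), and its overlap with VPS51 applies here. All libraries of this comparison were earlier-numbered, and with the order term the 9 calls were the same genes (11.6% of all genes passed there). In a fit of the earlier-numbered libraries alone, where 15.2% of all genes passed, these 9 passed again. The sensing genes INSIG1 (0.11 ± 0.032, edgeR adjusted p = 0.0178) and INSIG2 (0.17 ± 0.060, edgeR adjusted p = 0.048) also passed there, both higher. STARD4, CYP51A1 and NPC1 passed whichever of the 6 libraries was left out. The count of called members was 5 without vehicle replicate 2, 4 without Menthae Herba high replicate 2 and at most 7 without any other library, and SQLE lost its call in each of the 6 fits.

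**Figure D2:**
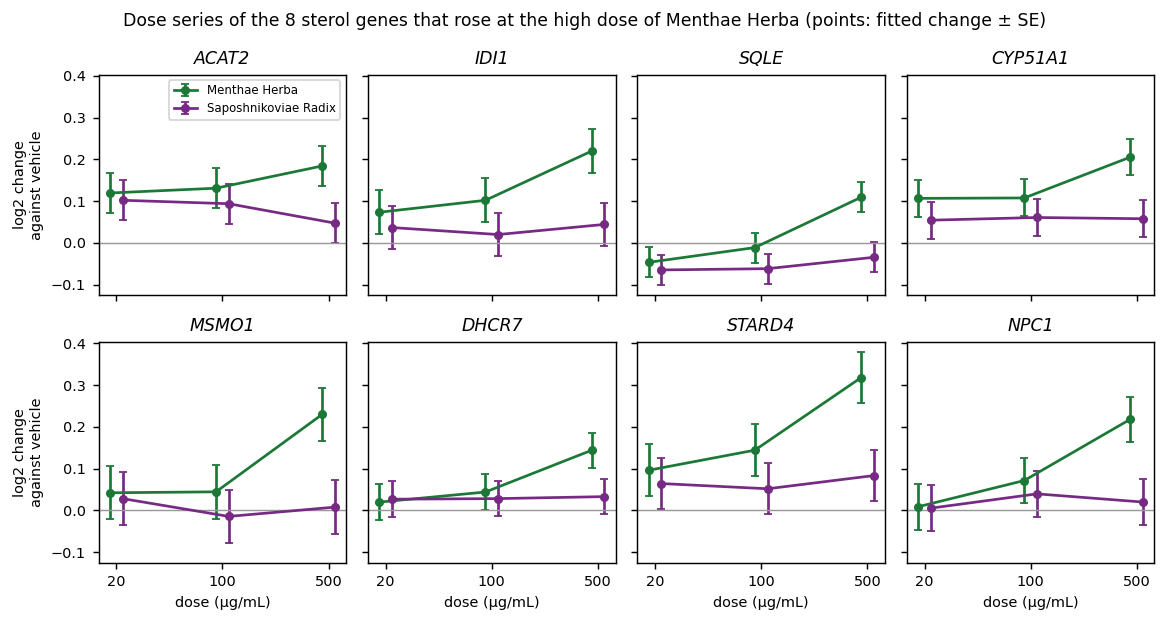
Fitted log2 change against vehicle (vertical axis, bars: ± SE) of the 8 genes that rose at the high dose of Menthae Herba, at 20, 100 and 500 µg/mL (log axis), for both single herbs. The 3 Menthae Herba points of STARD4 are 0.10, 0.14 and 0.32, while the highest Saposhnikoviae Radix point in the 8 panels is 0.10 (ACAT2 at the low dose).

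The lower doses of Menthae Herba gave smaller estimates. No member passed at the medium dose, where 0.739% of all genes did (unadjusted p under 0.05 in edgeR for 5 members and 13.9% of all genes, adjusted p under 0.05 in DESeq2 for 0 members and 2.9%), or at the low dose, where 0.0587% did (3 members and 10.7% unadjusted in edgeR, 0 and 0.735% in DESeq2). Shares by DESeq2 are of the genes to which it gave an adjusted p. The median over members was 0.035 at the medium and 0.034 at the low dose. High against low dose, which leaves the vehicle libraries out, gave 3 higher members and 0 lower where 2.36% of all genes passed. SQLE rose from 650 ± 2.89 to 724 ± 10.6 CPM (0.16 ± 0.036, edgeR adjusted p = 0.00632), NPC1 changed by 0.21 ± 0.054 (edgeR adjusted p = 0.019) and STARD4 by 0.22 ± 0.061 (edgeR adjusted p = 0.0325). The dose plot shows all 8 genes, which did not share 1 shape, and the medium and high doses were not tested against each other. In the earlier-numbered libraries alone, ACAT2 was at 0.12, 0.13 and 0.18 against vehicle at the low, medium and high dose. CYP51A1 was at 0.11, 0.11 and 0.21 there, and SQLE at -0.047, -0.011 and 0.11. Without Menthae Herba high replicate 2, 0 members passed here, and 1 passed without Menthae Herba low replicate 2 or replicate 3.

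The high dose of Menthae Herba and of Saposhnikoviae Radix were compared directly, in libraries of the same part of the numbering. There 3 members were higher in Menthae Herba and 0 lower, with 1.1% of all genes past the threshold. INSIG1, which retains SCAP in the endoplasmic reticulum and is itself a target of SREBP2, was at 128, 128 and 131 CPM with Menthae Herba and at 111, 114 and 109 CPM with Saposhnikoviae Radix, where vehicle had 119 to 119.9 CPM. The difference was 0.21 ± 0.043 (edgeR adjusted p = 0.0029) and passed whichever library was left out. STARD4 differed by 0.23 ± 0.061 (edgeR adjusted p = 0.0353) and SQLE by 0.14 ± 0.036 (edgeR adjusted p = 0.0257). The count was 1 without replicate 2 or replicate 3 of either herb, and DESeq2 called 8 members and 1.87% of all genes.

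With Saposhnikoviae Radix no member passed edgeR's threshold at any dose. Of all genes, 0.499% passed at the high, 0.0293% at the medium and 0.17% at the low dose. At an unadjusted p under 0.05 edgeR had 4, 2 and 2 members (11.5%, 9.22% and 10.7% of all genes), and DESeq2 called 1, 0 and 0 (1.62%, 0.266% and 1.01% of all genes). Its high against low comparison had 0 called members, with 0.0293% of all genes called, 2 members and 3.77% of all genes at an unadjusted p under 0.05 in edgeR, and 0 members and 0.0645% by DESeq2. TM7SF2 was at 29.6, 29.2 and 30.2 CPM at the high dose, below all vehicle libraries, and the order term gave it an edgeR adjusted p of 0.0346 against 0.0684 without the term (a change of -0.20 in both); it was the only member called at that dose with the term, with 1.17% of all genes. ABCA1 was the only member called with the term at the medium dose (0.48 ± 0.11, edgeR adjusted p = 0.0293, with 0.229% of all genes) and at the low dose (0.43 ± 0.11, edgeR adjusted p = 0.0384, with 0.675%). Without the term its changes were as large, at 0.48 ± 0.12 and 0.43 ± 0.12 (edgeR adjusted p = 0.138 and 0.15). Without vehicle replicate 3, 1 member passed at the high dose.

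With Saengmaek-san at the high dose 2 of 28 members changed where 4.28% of all genes passed. MYLIP was at 13.6, 12.4 and 13.2 CPM in vehicle and at 16.0, 15.0 and 16.9 CPM in treated libraries, a rise of 0.29 ± 0.059 on the log2 scale (edgeR adjusted p = 0.00317) that passed whichever library was left out. INSIG1 fell from 119.9, 118.9 and 119 CPM to 105, 111 and 108 CPM (-0.15 ± 0.043, edgeR adjusted p = 0.0415), and lost its call without any 1 of the 6 libraries. Replicates 1 and 2 of this group were earlier-numbered. In the earlier-numbered libraries alone 4 members passed, with 9.27% of all genes, the further ones being TM7SF2 (-0.17 ± 0.050, edgeR adjusted p = 0.0259) and ABCA1 (0.41 ± 0.11, edgeR adjusted p = 0.0195). The fit with the order term called 5, with 6.39% of all genes. DESeq2 called 6, with 10% of all genes. Without Saengmaek-san high replicate 1 the count was 4, and without vehicle replicates 1 or 2, or Saengmaek-san high replicates 2 or 3, it was 1. The medium and low doses had 0 called members, where 0.416% and 0.0938% of all genes passed, and high against low had 0 where 0.0235% did. At an unadjusted p under 0.05 edgeR had 4, 2 and 7 members in these 3 comparisons (12.7%, 7.53% and 7.55% of all genes), and DESeq2 called 0 in each (1.94%, 0.383% and 0.211% of all genes). At the low dose the order term called ABCA1 (0.53 ± 0.11, edgeR adjusted p = 0.00961, with 0.27% of all genes), against 0.46 ± 0.12 without it (edgeR adjusted p = 0.146).

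With Guibi-tang at the high dose TM7SF2 fell and no other member passed, where 2.26% of all genes passed. TM7SF2 was at 28.95, 30.1 and 29.1 CPM, below the 31.9 to 36.5 CPM of vehicle (-0.21 ± 0.053, edgeR adjusted p = 0.0203), and this call was lost without vehicle replicates 1 or 2 or Guibi-tang high replicates 1 or 3, while 2 members passed without Guibi-tang high replicate 2. Against the low dose, at 36.4, 38.7 and 33.7 CPM, TM7SF2 fell by 0.30 ± 0.053 on the log2 scale (edgeR adjusted p = 0.00114) whichever library was left out, and 0.352% of all genes passed. It was the only member called in that comparison. When only earlier-numbered libraries were fitted, which keeps 2 of the 3 Guibi-tang libraries, 6 members passed against vehicle at the high dose, where 4.28% of all genes did. These were TM7SF2, lower, and 5 genes that were higher: CYP51A1 (0.16 ± 0.031, edgeR adjusted p = 0.00181), IDI1 (0.18 ± 0.044, edgeR adjusted p = 0.0135), STARD4 (0.23 ± 0.061, edgeR adjusted p = 0.0267), NPC1 (0.15 ± 0.043, edgeR adjusted p = 0.0439) and HMGCS1 (0.13 ± 0.039, edgeR adjusted p = 0.0468). With the order term 3 passed (TM7SF2, HMGCS1 and CYP51A1), with 3.62% of all genes. The median over members was 0.079, against 0.0062 over all genes, and 11 members and 15.8% of all genes had an unadjusted p under 0.05. The third library of Guibi-tang high, the later-numbered one, had the lowest level of the 3 for STARD4 (42.0 against 52.5 and 46.5 CPM), CYP51A1 and NPC1. The medium and low doses had 0 called members, where 1.07% and 0.85% of all genes passed (3 and 3 members at an unadjusted p under 0.05 in edgeR, with 15.6% and 14.2% of all genes, and 1 and 0 calls by DESeq2, with 2.12% and 2.01%). At the low dose the order term called ABCA1 (0.48 ± 0.12, edgeR adjusted p = 0.0265, with 1.21% of all genes), against 0.32 ± 0.13 without it (edgeR adjusted p = 0.221).

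Guibi-tang and Saengmaek-san at the high dose differed in 2 members, with 0.37% of all genes called. Mevalonate kinase, MVK, was at 37.7, 38.2 and 35.8 CPM with Guibi-tang and 33.3, 33.1 and 31.3 CPM with Saengmaek-san (0.19 ± 0.047, edgeR adjusted p = 0.0425). SQLE was at 726, 691 and 717 CPM against 618, 645 and 659 CPM (0.15 ± 0.036, edgeR adjusted p = 0.0356). Neither gene's groups overlapped, in genes picked by the test on the same libraries. Same-numbered libraries of these groups deviated together, but they also share their part of the numbering, so the 2 cannot be told apart. With the replicate number as a block 4 members passed, and the share of all genes in that fit is not given. With the order term 4 members passed too, with 0.493% of all genes. The count was 0 without Saengmaek-san high replicates 1 or 2 or Guibi-tang high replicate 1, and 1 without replicate 3 of either.

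At the high dose of Soyo-san 4 members were higher than in vehicle and 1 was lower, or 17.9% of the members, where 14.5% of all genes passed. The share of members was thus near that of all genes, and the median over members was -0.013. HMGCS1, the cytosolic synthase that makes the HMG-CoA for mevalonate, was at 165, 175 and 169 CPM in vehicle and at 186, 187 and 186 CPM after Soyo-san (0.14 ± 0.040, edgeR adjusted p = 0.0152). MVD, which decarboxylates mevalonate diphosphate, had 52.7, 48.8 and 48.0 CPM in vehicle and 56.2, 55.4 and 59.1 CPM in treated libraries (0.19 ± 0.053, edgeR adjusted p = 0.0107). NSDHL, a dehydrogenase of sterol demethylation, was at 71.2, 69.9 and 68.4 CPM against 81.0, 77.9 and 74.1 CPM (0.15 ± 0.049, edgeR adjusted p = 0.0277). NPC2, the soluble lysosomal protein that hands cholesterol to NPC1, was lower, at 27.1, 27.1 and 29.4 CPM against 31.4, 32.3 and 32.1 CPM in vehicle (-0.20 ± 0.054, edgeR adjusted p = 0.0101). ABCA1, which exports cholesterol to lipid-poor apolipoproteins, changed by 0.36 ± 0.13 (edgeR adjusted p = 0.0496).

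In none of these 5 genes did the Soyo-san libraries overlap vehicle, which adds no support, since the test on the same libraries picked them. All of the Soyo-san libraries were later-numbered and the vehicle libraries earlier-numbered. With the order term, under which 7.16% of all genes passed, HMGCS1 and ABCA1 did, at 0.14 ± 0.045 (edgeR adjusted p = 0.0494) and 0.62 ± 0.13 (edgeR adjusted p = 0.00195). MVD, NSDHL and NPC2 did not, at 0.10 ± 0.057, 0.033 ± 0.047 and -0.14 ± 0.061 (edgeR adjusted p = 0.291, 0.751 and 0.149). The order effect itself was 0.12 ± 0.025 for NSDHL and 0.089 ± 0.030 for MVD, higher in later-numbered libraries. Over the members it was higher for 2 genes and lower for 9, against 15.9% and 13.7% of all genes, among the latter ABCA1 (-0.26 ± 0.070). Leaving out any 1 library left 1 to 3 calls: 1 without vehicle replicate 3 or Soyo-san high replicate 1, 2 without vehicle replicates 1 or 2 or Soyo-san high replicate 2, and 3 without Soyo-san high replicate 3.

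**Figure D3:**
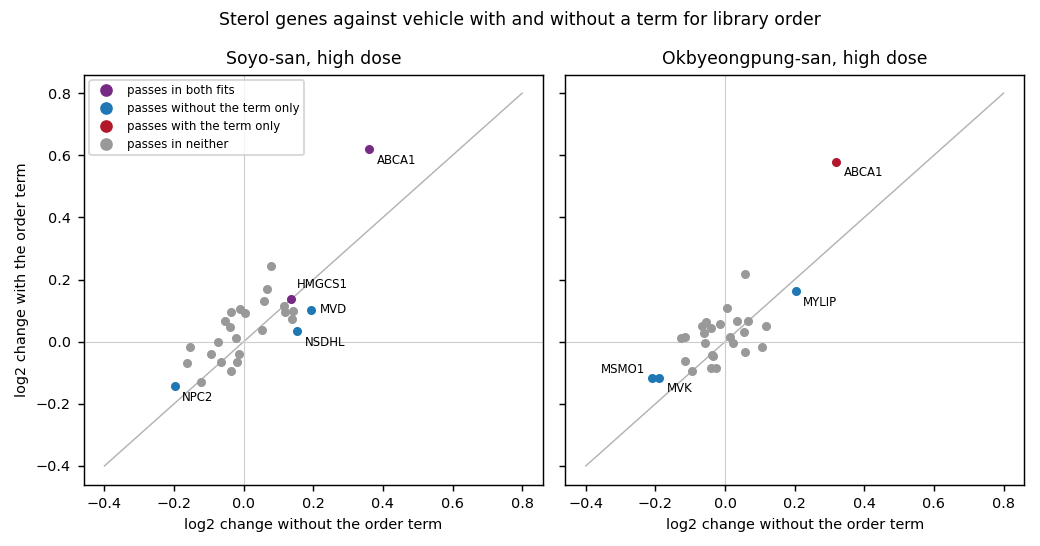
Log2 change against vehicle of the 28 members at the high dose of Soyo-san and of Okbyeongpung-san, without (horizontal) and with (vertical) a term for the earlier or later part of the library numbering. The grey diagonal marks equal values. ABCA1 lies above the diagonal in both panels (0.36 and 0.62 for Soyo-san), while NSDHL falls to 0.033.

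At the medium dose of Soyo-san HMGCS1, MVD, NSDHL and MYLIP were higher and NPC2 was lower, where 9.87% of all genes passed. Their changes were 0.14 ± 0.040, 0.17 ± 0.053, 0.15 ± 0.049, 0.20 ± 0.060 and -0.18 ± 0.054 (edgeR adjusted p = 0.0205, 0.0366, 0.0363, 0.0241 and 0.0275). MYLIP was at 15.2, 15.9 and 14.0 CPM, above vehicle at 12.4 to 13.6 CPM. Once the order term was added, none of these 5 passed and ABCA1 did (0.61 ± 0.13, edgeR adjusted p = 0.00508), with 2.97% of all genes. HMGCS1 kept its size at 0.14 ± 0.045 (edgeR adjusted p = 0.0771), MYLIP was at 0.16 ± 0.071 and NPC2 at -0.12 ± 0.061 (edgeR adjusted p = 0.221 and 0.291). MVD was at 0.076 ± 0.057 and NSDHL at 0.033 ± 0.047 (edgeR adjusted p = 0.525 and 0.779). The count was 0 without vehicle replicate 3 or Soyo-san medium replicates 1 or 2, 1 without vehicle replicate 2 and 3 without vehicle replicate 1. At the low dose MVD (0.19 ± 0.053, edgeR adjusted p = 0.0261) and ABCA1 (0.46 ± 0.13, edgeR adjusted p = 0.0296) were higher, where 3.93% of all genes passed, and with the order term ABCA1 alone passed, with 3.9% of all genes, while MVD was at 0.11 ± 0.056 (edgeR adjusted p = 0.318). Without vehicle replicates 2 or 3 or Soyo-san low replicates 1 or 2 the count was 0, and 1 without vehicle replicate 1. High against low dose of Soyo-san, all later-numbered, had 0 called members where 0.129% of all genes passed (2 members and 7.76% of all genes at an unadjusted p under 0.05 in edgeR, 0 and 0.326% by DESeq2).

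At the high dose of Okbyeongpung-san MVK and MSMO1 were lower and MYLIP was higher, 3 of 28 members (10.7%) where 7.4% of all genes passed. MVK was at 32.8, 31.0 and 31.6 CPM against 36.4, 37.6 and 34.7 CPM in vehicle (-0.19 ± 0.048, edgeR adjusted p = 0.0112). MYLIP was at 14.9, 15.2 and 14.9 CPM, above vehicle (0.20 ± 0.061, edgeR adjusted p = 0.0311). MSMO1 was at 43.1, 48.4 and 54.1 CPM and overlapped vehicle at 52.7 to 60.3 CPM (-0.21 ± 0.066, edgeR adjusted p = 0.0417). With the order term these 3 changes were -0.12 ± 0.053, 0.16 ± 0.072 and -0.12 ± 0.072, none passed (edgeR adjusted p = 0.279, 0.254 and 0.472), and ABCA1 did, with 2.35% of all genes. MYLIP lost its call without any 1 of the 6 libraries. The count was 0 without vehicle replicate 2 or Okbyeongpung-san high replicate 2 and 1 without vehicle replicate 3 or Okbyeongpung-san high replicate 1.

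At the medium dose of Okbyeongpung-san INSIG2, the other SCAP-retaining protein, was lower and went from 22.1, 22.6 and 22.0 CPM to 18.4, 16.4 and 19.04 CPM (-0.30 ± 0.081, edgeR adjusted p = 0.025), where 3.75% of all genes passed. With the order term it was -0.16 ± 0.086 (edgeR adjusted p = 0.384), and ABCA1 passed (0.52 ± 0.13, edgeR adjusted p = 0.0251), with 1.96% of all genes. Of the 6 fits without 1 library, the call of INSIG2 held only in the one without Okbyeongpung-san medium replicate 3, where 2 members passed, and without vehicle replicates 2 or 3 or Okbyeongpung-san medium replicates 1 or 2 no member did. At the low dose HMGCS1 (0.12 ± 0.040, edgeR adjusted p = 0.0438), MVD (0.24 ± 0.053, edgeR adjusted p = 0.0029) and ABCA1 (0.48 ± 0.13, edgeR adjusted p = 0.0141) were higher, where 8.79% of all genes passed. MVD was at 59.2, 60.5 and 56.6 CPM, and its call held without any 1 library. With the order term ABCA1 passed, higher (0.73 ± 0.13, edgeR adjusted p = 3.27e-04), and SQLE, lower (-0.13 ± 0.039, edgeR adjusted p = 0.0438), with 4.94% of all genes. HMGCS1 at 0.12 ± 0.045 and MVD at 0.15 ± 0.057 did not pass in that fit (edgeR adjusted p = 0.103 and 0.117). Without vehicle replicate 3 the count was 1. High against low dose of this formula had 0 called members, where 0.00587% of all genes passed, and Soyo-san against Okbyeongpung-san at the high dose had 0, where 0% did. At an unadjusted p under 0.05 edgeR had 3 and 3 members there (4.73% and 4.46% of all genes), and DESeq2 called 0 and 0 (0.0117% of all genes in each).

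**Figure D4:**
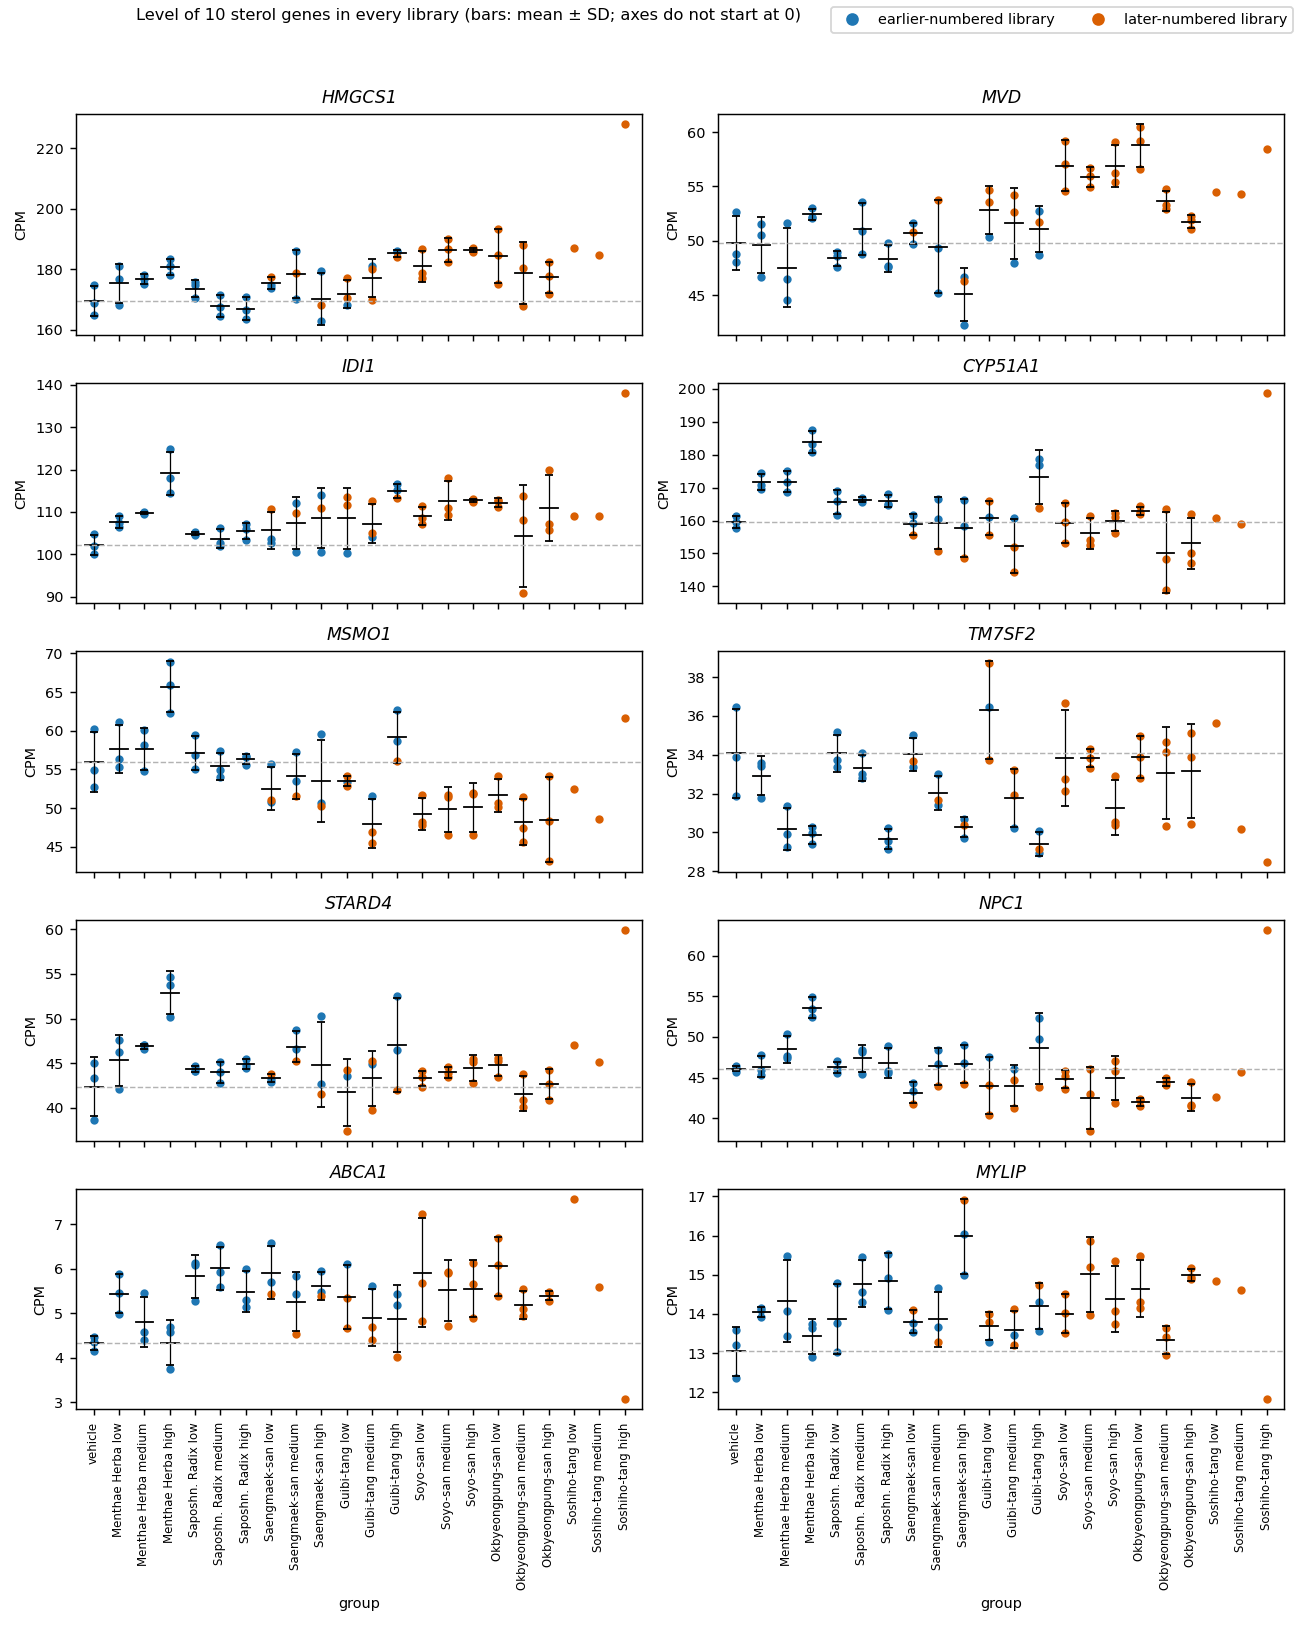
Level in CPM (vertical axes, which do not start at 0) of 10 members in each of the 60 libraries, by group, with the mean and SD of each group of 3 as black bars and the vehicle mean as a dashed line. Blue points are earlier-numbered and orange points later-numbered libraries. In ABCA1 the vehicle libraries lie between 4.16 and 4.47 CPM, below most treated libraries, and in STARD4, NPC1, IDI1 and HMGCS1 the single high-dose Soshiho-tang library is the highest of all 60.

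ABCA1 was at 4.33 ± 0.156 CPM (SD, n = 3) in vehicle. Its estimate against vehicle was above 0 in all 18 comparisons, which share these vehicle libraries, as were those of ACAT2, IDI1 and MYLIP. FDFT1 was above 0 in 0 of the 18. The share of all genes with 1 sign throughout was not counted, so this is not shown to be particular to these members. Group means of ABCA1 in the extracts ran from 4.34 CPM (Menthae Herba high) to 6.05 CPM (Okbyeongpung-san low). Saposhnikoviae Radix had 5.83 ± 0.478, 6.01 ± 0.481 and 5.49 ± 0.452 CPM at the low, medium and high dose, values that did not rise with dose. It passed the threshold in 3 of the 18 comparisons, and in 11 with the order term, at between 0.43 and 0.73 on the log2 scale. These 11 were all comparisons of Soyo-san and Okbyeongpung-san, the high and low doses of Saengmaek-san, the low dose of Guibi-tang and the medium and low doses of Saposhnikoviae Radix. Its fellow exporter ABCG1, at 2.41 ± 0.415 CPM in vehicle, passed in none, with estimates between -0.31 and 0.26. MYLIP, the other LXR target, was called in 3. How many of all genes were called as often as these was not counted. Of all 28 members, ABCA1 and ABCG1 had the fewest counts, which limits what can be detected there. The plot of levels by library shows these spreads.

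The 10 members that passed in no comparison with vehicle included SREBF2, the gene of SREBP2 itself, at 285 ± 11.2 CPM (SD, n = 3) in vehicle, and SCAP, its escort, at 77.2 ± 1.40 CPM. Between them the mevalonate steps had 2 such genes, phosphomevalonate kinase (PMVK, 17.7 CPM) and farnesyl diphosphate synthase (FDPS, 139 CPM). The later steps had 5: squalene synthase (FDFT1, 189 CPM), lanosterol synthase (LSS, 102 CPM), the ketosteroid reductase HSD17B7 (12.9 CPM), the sterol isomerase EBP (69.2 CPM) and the desaturase SC5D (88.6 CPM). ABCG1 was the last of the 10.

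Among the 3 Soshiho-tang libraries, that of the high dose had the most members past 1.25-fold of the vehicle mean. It was a single library, and no test was run on it. Relative to the vehicle mean, 8 of 28 members were at least 1.25-fold higher and 3 at least 1.25-fold lower, 11 in all, where 22.7% of the 13257 tested genes with at least 1 CPM in vehicle were past that fold (8.74% higher, 13.9% lower). The median ratio was 1.15 over members and 1.01 over those genes. In 14 members this library was the highest of all 60, where 12.2% of the 13257 genes were highest in it, and in 4 members the lowest, where 9.41% were.

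The highest ratios were found in transport, squalene oxidation and the mevalonate steps. STARD4 was at 59.9 CPM (95% Poisson interval 56.8 to 63.2, which covers counting error only), 1.41 times the vehicle mean, where vehicle had 38.7 to 45.0 CPM. SQLE was at 931 CPM (919 to 944) against 660 to 681 CPM, a ratio of 1.39. NPC1 was at 63.2 CPM (59.9 to 66.5) against 45.7 to 46.4 CPM, a ratio of 1.37. These 3 genes were also among those that rose with Menthae Herba. HMGCS1 (228 CPM, ratio 1.35), IDI1 (138 CPM, 1.35), NSDHL (90.9 CPM, 1.302), INSIG1 (155 CPM, 1.301) and the desaturase SC5D (113 CPM, 1.28) completed the genes past 1.25-fold, with CYP51A1 at 1.247 just inside. The lower bound of the Poisson interval lay above all 3 vehicle libraries in 16 members, where it did in 25.3% of the 13257 genes, and the upper bound lay below them in 3, where it did in 17.9%.

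ABCA1, NPC2 and TM7SF2 were the 3 members whose interval lay below every vehicle library. ABCA1 was at 3.07 CPM (2.38 to 3.88) against 4.16 to 4.47 CPM, a ratio of 0.709, NPC2 at 23.7 CPM (21.8 to 25.8) against 31.4 to 32.3 CPM, a ratio of 0.743, and TM7SF2 at 28.5 CPM (26.3 to 30.8) against 31.9 to 36.5 CPM, a ratio of 0.836. The other LXR targets were within counting error of the lowest vehicle library. ABCG1 was at 1.87 CPM (1.34 to 2.52) against 1.96 CPM, a ratio of 0.774. MYLIP was at 11.8 CPM (10.4 to 13.3) against 12.4 CPM, a ratio of 0.906. SREBF2 was at 1.00 and SCAP at 1.04 times the vehicle mean. By role, the median ratio was 1.17 for the 7 mevalonate enzymes and 1.17 for the 11 enzymes from squalene to cholesterol. It was 1.02 for the 4 sensing genes, 1.37 for the 3 transport genes and 0.774 for the 3 LXR targets.

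**Figure D5:**
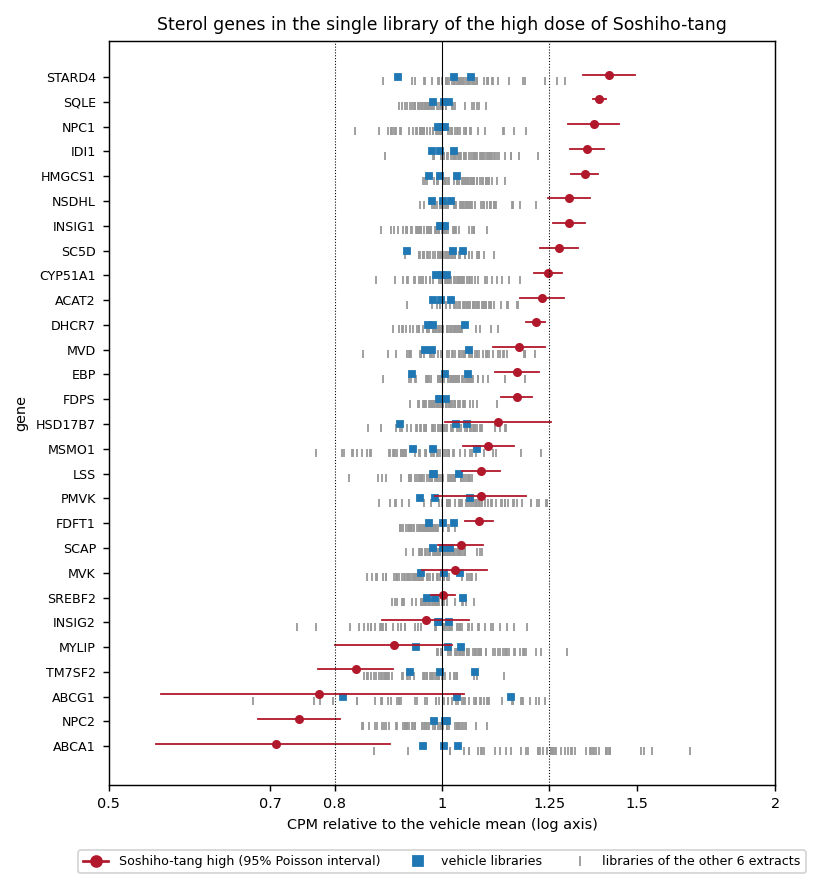
CPM relative to the vehicle mean (log axis) of the 28 members in the single high-dose Soshiho-tang library (red, with 95% Poisson intervals), in the 3 vehicle libraries (blue) and in the 54 libraries of the other 6 extracts (grey ticks). Dotted lines mark 1.25-fold. SQLE lies at 1.39, to the right of every other library, and ABCA1 at 0.709, to the left of every other library.

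This library was later-numbered and had the highest value of all libraries on the first principal component, 22.5, and its mitochondrial share was 10.7%; the part of either in these ratios was not tested. Against the later-numbered low-dose libraries of Soyo-san and Okbyeongpung-san, chosen as a reference after the data had been seen, 8 members were past 1.25-fold (6 higher, 2 lower), where 16.4% of the 13083 genes with at least 1 CPM in both references were. Later-numbered libraries of the other extracts reached at most 717 CPM for SQLE and 45.6 CPM for STARD4. The medium-dose and low-dose libraries each had 1 member past 1.25-fold, where 10.1% and 9.08% of genes were, and that member was ABCA1, at 1.29 and 1.75 times the vehicle mean. Its level thus ran from 7.57 CPM at the low dose through 5.59 CPM to 3.07 CPM at the high dose, in 1 library each. Median ratios over members were 1.00 at the medium and 0.997 at the low dose.

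Of 32 further genes of sterol and isoprenoid metabolism, 28 were tested, and of 15 genes of fatty acid synthesis, 13. The NADPH-forming malic enzyme ME1 rose in all 6 high-dose comparisons with vehicle, from 82.8 ± 2.75 CPM to 119 ± 2.89 CPM with Menthae Herba (0.53 ± 0.047, edgeR adjusted p = 7.36e-12) and by between 0.17 and 0.27 with the other 5 extracts, and all 6 rises passed with the order term. In the high-dose Soshiho-tang library it was at 129 CPM, 1.56 times vehicle. With Menthae Herba, where 8.57% of all genes passed, 3 of the 13 fatty acid genes rose and 0 fell, the second by p being the acyl-CoA synthetase ACSL3 (0.17 ± 0.048, edgeR adjusted p = 0.0189). Of the 28 further sterol genes 3 rose and 1 fell: LBR, the sterol reductase of the nuclear envelope (0.19 ± 0.046, edgeR adjusted p = 0.00473), and SCARB1, a receptor for high-density lipoprotein (0.18 ± 0.044, edgeR adjusted p = 0.00532), had the smallest p. LBR also rose with Saengmaek-san (0.20 ± 0.047, edgeR adjusted p = 0.0112), as did NUS1, a subunit of the dolichol-making enzyme (0.14 ± 0.040, edgeR adjusted p = 0.0336), while the acetyl-CoA synthetase ACSS2 fell there (-0.29 ± 0.077, edgeR adjusted p = 0.0234). NR1H2, which encodes LXR beta, rose with Soyo-san (0.24 ± 0.073, edgeR adjusted p = 0.0195) and Okbyeongpung-san (0.27 ± 0.074, edgeR adjusted p = 0.0185), and with the order term was at 0.18 ± 0.083 and 0.20 ± 0.084 (edgeR adjusted p = 0.202 and 0.213). NUS1 (0.15 ± 0.040, edgeR adjusted p = 0.0089) and the elongase ELOVL6 (0.17 ± 0.044, edgeR adjusted p = 0.00788) also rose with Soyo-san, and passed with the order term at 0.15 ± 0.046 and 0.16 ± 0.051 (edgeR adjusted p = 0.0393 and 0.0465). FAXDC2, a hydroxylase family member, fell with Guibi-tang (-0.32 ± 0.093, edgeR adjusted p = 0.0498).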

How the data were processed

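The 28 genes were followed in 60 RNA-seq libraries of HT29 cells. Per the labels' protocols, RNA with an integrity number over 7 gave directional libraries, read from both ends at 100 bp. The authors deposited expected counts per gene. The submitters' processing notes name FastQC 0.11.9, Trim Galore 0.6.5, STAR 2.7.3a and RSEM 1.3.3 and the build GRCh38 (hg38). Which annotation was counted, and with which strand setting, is not given in the sources used. Expected counts of this kind divide reads shared by several genes, and 27.7% of the deposited values above 0 were not whole. They were rounded for the tests.

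Genes were kept by filterByExpr (17049 genes, 99.95% of counts) and libraries scaled by TMM in edgeR 4.0.16 under R 4.3.3. The 27 comparisons (18 with vehicle, 6 of high against low dose, 3 between extracts) were tested by quasi-likelihood in edgeR, robustly estimated, in a single fit of 57 libraries (19 groups of 3, 38 residual degrees of freedom). P-values were adjusted by Benjamini-Hochberg over all genes tested, with a threshold of 0.05. CPM use TMM-scaled totals, and log2 changes and their SE come from that fit. It was also run on simulated counts without an order effect, where the smallest planted change was 1.25-fold. Many changes given here are smaller, so that run does not cover them, nor genes with few counts. The 3 Soshiho-tang libraries entered no test. The totals of 19.5 to 41.9 (units of 1e6 counts) set the counting precision, and PCR reads are not independent molecules, so intervals cover counting error only.

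The list of genes, the further lists, the comparisons and the alternatives were chosen with earlier results of these data known. Values in every library are given for up to 4 called members with the smallest p in each high-dose comparison with vehicle and for members called in 3 or more of the 18 comparisons, and change, SE and adjusted p for every called member. From the further lists the 2 called genes with the smallest p per list in each high-dose comparison are named. Same-numbered libraries were checked for pairing by correlating how far each lay from its group mean, gene by gene. Among the 27 comparisons only Guibi-tang against Saengmaek-san at the high dose had all 3 above 0.1 (0.144, 0.129 and 0.286), from libraries that also share their part of the numbering. The alternatives tried were size factors of DESeq2, no filter, the test of DESeq2 1.42.0, a fit on the 2 groups alone, a replicate block, the order term, the earlier-numbered libraries alone, and leaving out each library. A fit on the later-numbered libraries alone and the alternatives for Soshiho-tang were added after the data had been seen. No column was left out. Some genes of the pathway are not reported here.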

Additional observations from a re-analysis of the deposited data

How the results depend on the processing

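Counts of members past the threshold depended on the setting, while no call changed direction under any setting. Of the 40 calls, 38 held with DESeq2's size factors, 38 with DESeq2's own test, 40 with a replicate block, 30 in a fit on the 2 groups alone, 25 with the order term and 21 without a filter on low counts. Of the 20 that could be fitted in the earlier-numbered libraries alone, 19 held, and 7 of the 40 held whichever library was left out. The cause of the losses was not tested. A fit on later-numbered libraries alone, added after the data had been seen, held no vehicle library and so no comparison with vehicle. It covered high against low dose of Soyo-san and of Okbyeongpung-san, and Soyo-san against Okbyeongpung-san at the high dose. No count moved by over 1.5 times there. These comparisons had 0 called members in the fit of 57 libraries, so none of the 40 calls could be checked this way.

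Counts that moved by over 1.5 times are given by setting, as the count at the high dose against vehicle unless another comparison is named. The share of all genes called moved with the setting as well. It stands in parentheses for DESeq2's own test, the order term and the earlier-numbered libraries alone. For the other settings it is not given, so those counts describe the setting and are no result about the members. With DESeq2's size factors Saengmaek-san had 5 and Okbyeongpung-san medium 2. Without the filter Saengmaek-san had 1, Soyo-san 3, Soyo-san medium 1, Okbyeongpung-san medium 2, Saposhnikoviae Radix medium and low, Guibi-tang medium and Saengmaek-san low 1 each, and Guibi-tang against Saengmaek-san 0. DESeq2's own test gave Saposhnikoviae Radix 1 (1.62% of all genes), Saengmaek-san 6 (10%), Guibi-tang 4 (4.18%) and Guibi-tang medium 1 (2.12%). It gave Okbyeongpung-san medium 2 (5.7%), Okbyeongpung-san low 5 (13.1%), Guibi-tang high against low 2 (0.882%) and Menthae Herba against Saposhnikoviae Radix 8 (1.87%). The fit on the 2 groups alone gave Saposhnikoviae Radix 1 in each comparison (high, medium, low, and high against low), Saengmaek-san 0, Guibi-tang 0, Okbyeongpung-san 1, Soyo-san low 4, Menthae Herba high against low 6, Guibi-tang high against low 0, Menthae Herba against Saposhnikoviae Radix 12 and Guibi-tang against Saengmaek-san 0.

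The replicate block, a term for the replicate number over all 57 libraries, gave Guibi-tang against Saengmaek-san 4 in place of 2. This was the 1 comparison with all 3 correlations above 0.1. Its same-numbered libraries also share their part of the numbering, and the labels do not say that numbers pair libraries. In other comparisons the block gave Saengmaek-san 6, Guibi-tang 2, Okbyeongpung-san medium 2, Saposhnikoviae Radix medium and low and Guibi-tang medium 1 each, and Menthae Herba against Saposhnikoviae Radix 5. Each library correlated best with its own number also in Saposhnikoviae Radix medium against vehicle and in the other 2 comparisons between extracts, as a hint from the data only.

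The order term gave Guibi-tang 3 (3.62% of all genes), Saengmaek-san 5 (6.39%), Soyo-san 2 (7.16%), Saposhnikoviae Radix 1 (1.17%) and Okbyeongpung-san 1 (2.35%). It gave 1 each in Saposhnikoviae Radix medium (0.229%) and low (0.675%), Soyo-san medium (2.97%) and low (3.9%), Saengmaek-san low (0.27%) and Guibi-tang low (1.21%). It gave Menthae Herba high against low 5 (3.36%), Guibi-tang high against low 2 (0.416%), Menthae Herba against Saposhnikoviae Radix 8 (1.64%) and Guibi-tang against Saengmaek-san 4 (0.493%). It moved the median over members of Soyo-san from -0.013 to 0.056 at the high dose, to 0.044 at the medium and to 0.042 at the low dose. The earlier-numbered libraries alone gave Saposhnikoviae Radix 1 (3.1% of all genes), Saengmaek-san 4 (9.27%), Guibi-tang 6 (4.28%), Menthae Herba medium 3 (5.01%) and Menthae Herba low 1 (3.25%). They gave 1 each in Saposhnikoviae Radix medium (1.13%) and low (2.73%) and Saengmaek-san medium (2.93%) and low (0.299%). Menthae Herba high against low had 8 there (4.89%) and Menthae Herba against Saposhnikoviae Radix 8 (2.39%).

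Leaving out 1 library gave Menthae Herba 4 to 7, Soyo-san 1 to 3, Saengmaek-san 1 to 4, Saposhnikoviae Radix 0 to 1, Okbyeongpung-san and Guibi-tang 0 to 2 each, Guibi-tang medium 0 to 1, Soyo-san medium 0 to 5, Okbyeongpung-san medium 0 to 2, Soyo-san low 0 to 2, Okbyeongpung-san low 1 to 3, Menthae Herba high against low 0 to 3, Menthae Herba against Saposhnikoviae Radix 1 to 2 and Guibi-tang against Saengmaek-san 0 to 2. The 11 members past 1.25-fold in the high-dose Soshiho-tang library were 11 with DESeq2's size factors and 10 or 11 without 1 vehicle library. Depth limits ABCA1 and ABCG1 most, since they had the fewest counts of the members.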
